A study of Mus musculus with 12 samples.

Results

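Splenic B cells that lack Pdap1 were compared with control B cells after culture with TGFβ, LPS and BAFF, the B cell-activating factor, a mixture that drives switching of the antibody heavy chain to IgG2b. The comparison rests on 6 of the 12 RNA-seq libraries of the series, chosen by their labels alone, with 3 mice of each genotype. Mice of both groups carry 1 knock-in allele of a Cre recombinase that acts in the B lineage, and only the Pdap1-deficient mice (Pdap1F/F) have loxP sites around exon 2 of Pdap1. Cells were harvested after 48 h. The dose of LPS was 5 µg/ml, that of BAFF was 10 ng/ml, and TGFβ was added at 2 ng/ml. The labels give the strain as C57BL/6, and the study's methods add that the floxed Pdap1 allele was made in C57BL/6N embryos. Mice were of both sexes and age-matched over a wide adult range, and their cells were enriched by removal of CD43+ splenocytes. The labels also name the B cell line CH12 for every sample, whereas the study's methods describe primary cells from 3 mice per genotype. Cells that escape deletion stay in the deficient cultures. The labels number the mice 1 to 3 in each group and do not say that control and deficient mice of equal number belong together.

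PDGFA-associated protein 1, the product of Pdap1, is a small phosphoprotein that is widely expressed. The integrated stress response (ISR) is the pathway in which kinases such as Perk and Gcn2 phosphorylate the translation factor eIF2α, which slows protein synthesis in general while the mRNA of the transcription factor Atf4 is translated more. Atf4 then raises genes for amino acid synthesis and uptake, tRNA charging and redox defence, often through a DNA element that it binds with a C/EBP partner. Activated B cells have a high demand for protein synthesis, and class switching in them needs cell division, transcription through the switch regions and a set of DNA repair factors.

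Total counts were between 4579793 and 8303482 in 5 of the libraries and 69500640 in the library of control mouse 1. That library stood apart in more than depth. The first principal component, with 40.1% of the variance, placed it at -60.4 and the other control mice at 4.27 and -4.37. The small nuclear RNA gene Rn7sk took 1.86% of its counts, against 0.167 to 0.29% in the others, and a transcript that resembles ribosomal RNA, CT010467.1, took 3.38%, against 0.0383 to 1.80%. The mitochondrial tRNA synthetase gene Lars2 took 9.9% of the counts of Pdap1-deficient mouse 1, 1.96% and 1.06% of the other deficient mice and at most 0.486% of a control library. B cell markers were at 6375 to 7017 counts scaled to library size (CPM) in sum in all 6 libraries, and the summed T cell and natural killer cell markers were at most 50 CPM and at most 1.93 CPM. Myeloid markers summed to 39.2 to 68.9 CPM in the controls and in Pdap1-deficient mouse 1, but to 608 CPM in Pdap1-deficient mouse 2 and 102 CPM in mouse 3. Of the 16 myeloid markers, Ly6g and C1qb had no count in any library, while Lyz2 was at 277 CPM in mouse 2 and 40.6 CPM in mouse 3 against 0.638 to 5.55 CPM in the others. Xist was high in control mice 1 and 3 and in Pdap1-deficient mouse 1, so that the groups also differed in sex, with 2 females among 3 controls and 1 among 3 deficient mice.

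Transcripts of Pdap1 itself (chromosome 5, 145128769-145140238, minus strand, GRCm38) were at 195, 79.6 and 99.5 CPM in control mice 1 to 3 and at 26.2, 25.95 and 22.8 CPM in the deficient mice. Every deficient mouse was below every control mouse, and the fitted level was 19.9% of control, a log2 fold change of -2.33 with a standard error (SE) of 0.36. In edgeR's quasi-likelihood test over all genes this gave an adjusted p (Benjamini-Hochberg) of 0.0929. Control mouse 1 lay far above the other controls. Its omission gave a log2 fold change of -1.85 (SE 0.13) with an adjusted p of 4.9e-06. Counts outside exon 2 can persist after the deletion, and Pdap1 overlaps Arpc1b on the opposite strand.

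Of 14079 genes that passed the filter on low counts, 65 were called, meaning an adjusted p under 0.05 in edgeR's test: 64 were higher and 1 was lower in Pdap1-deficient cells. That is 0.462% of tested genes, with 0.455% higher and 0.0071% lower. Of the 64 higher genes, 47 rose more than 2-fold, 19 more than 4-fold and 8 more than 8-fold, and the single lower gene was Ifi208. The median log2 fold change over all tested genes was 0.01. At an unadjusted p under 0.05 there were 1486 genes, 10.6% of those tested, with 5.28% lower. For all 65 genes the 3 values of one group lay outside the range of the other, which was true of 18.9% of all tested genes. DESeq2's Wald test called all 65 and 107 others, 131 higher and 41 lower of 17490 genes, or 0.983%. With sex, read from Xist, added as a term, edgeR called 41 of the 65, a fit chosen after the values were seen.

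The comparison was then repeated with control mouse 1 thinned at random to 8058514 counts, about the size of the other control libraries. This left 62 higher and 1 lower gene of 14069, or 0.448%, of which 59 were among the 65. Over 10 such draws between 59 and 67 genes were called, and 53 of the 65 were called in each draw. The genes lost in the draw shown were Gm12981, Gm19238, Jdp2, Lrp4, Rhbdd1 and Slamf9, and those gained were Arl11, Hdgfl3, Ptgir and Slc4a5. Fold changes moved little, by a median of 0.03 on the log2 scale and by at most 0.31 among the 65. Leaving control mouse 1 out changed more than thinning it. With the 5 other libraries 105 genes were called higher, 0.72% of 14585, and 11 were called lower, 0.0754%. Of the 65 genes 63 were called again, and 52 were called both there and in all 10 draws. Spread between mice of a group, as edgeR's median biological coefficient of variation, fell from 20.9% to 16.5% when control mouse 1 was left out. Leaving out any other single mouse left 19 to 47 calls, fewest without control mouse 3. A core of 19 genes was called in all 10 draws and in each of the 6 fits that left out 1 mouse: Asns, Chac1, Gpt2, Pck2, Slc1a4, Cth, Slc6a9, Trib3, Bcat1, Glipr2, Sesn2, Cars, Slc7a3, Clic4, Phf10, Vegfa, Aldh1l2, Slc7a5 and Ifi208.

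**Figure D1:**
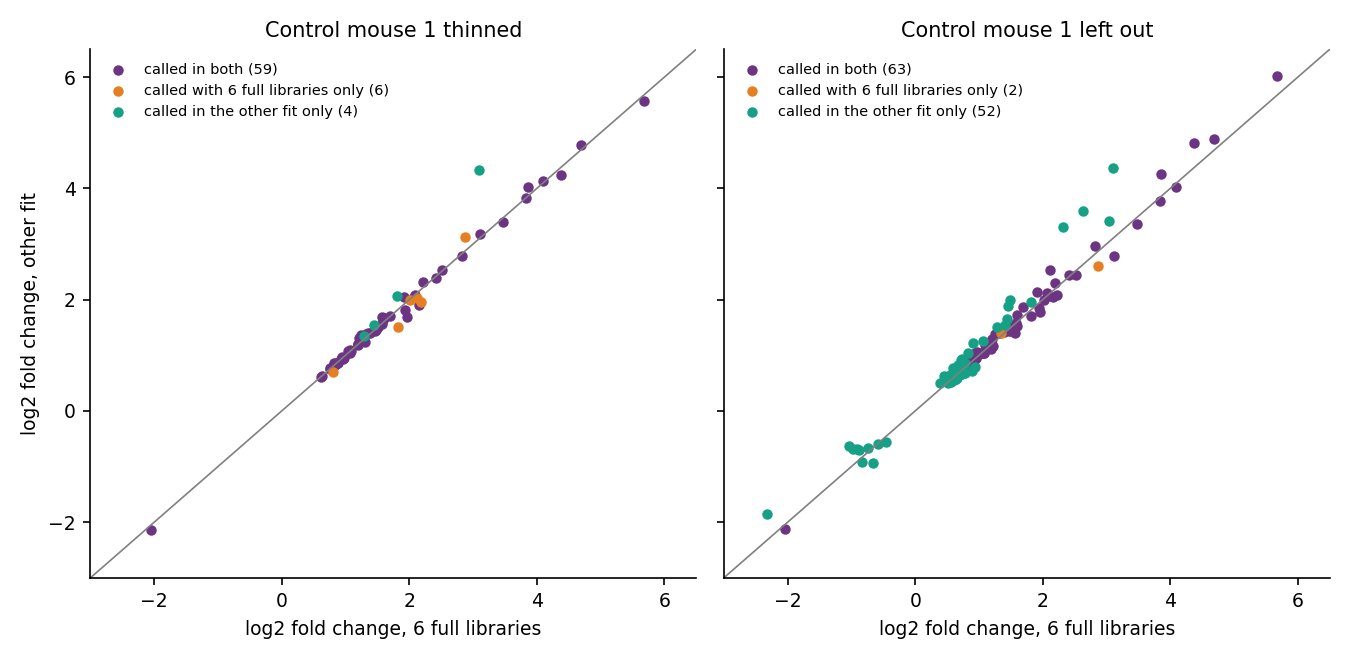
Log2 fold change (Pdap1-deficient over control) with the 6 full libraries on the horizontal axis, against the fit with control mouse 1 thinned (left) or left out (right), 1 point per gene called in either fit, with the line of equality in grey. With thinning 59 genes are called in both fits and 4 only there, while leaving the library out adds 52 of the genes tested in both fits, most of them with a log2 fold change under 2.

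Some promoters of the higher genes share a short DNA element. Promoters from 250 bases before to 50 bases after each RefSeq gene start (GRCm38.p6) were searched on both strands for TGATGNAA, the core of the C/EBP-ATF response element through which Atf4 acts. Of the 64 higher genes 42 had a promoter in the table, and 15 of these, 35.7%, held the element. Among all tested genes with a promoter it was 252 of 8930, or 2.82%. Genes with several starts have more than 1 window. It is shown here in promoters of 7 genes that rose, so that its surroundings can be compared. Each is written 5′ to 3′ on the strand of its gene with the 8 bases of the element in capitals, which read TTNCATCA where the element is on the other strand. Stretches that reach into the transcribed part are kept to 30 bases.
Asns, chr6:7693214-7693243, minus strand: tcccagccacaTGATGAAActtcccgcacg
Chac1, chr2:119351023-119351082, plus strand: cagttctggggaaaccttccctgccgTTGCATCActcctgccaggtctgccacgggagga
Pck2, chr14:55540137-55540196, plus strand: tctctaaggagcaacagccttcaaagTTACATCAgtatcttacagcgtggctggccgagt
Slc1a4, chr11:20332699-20332728, minus strand: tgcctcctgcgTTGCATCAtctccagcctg
Trib3, chr2:152344028-152344057, minus strand: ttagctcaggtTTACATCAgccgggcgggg
Pycr1, chr11:120643818-120643877, minus strand: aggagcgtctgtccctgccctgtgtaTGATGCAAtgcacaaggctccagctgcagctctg
Yars, chr4:129189895-129189924, plus strand: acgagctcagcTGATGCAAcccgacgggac

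The element began 193 bases before the RefSeq start of Chac1 and 103 before those of Pck2 and Pycr1, and it lay at or next to the start in Asns, Slc1a4, Trib3 and Yars. The other higher genes with a match were Aars, Arl14ep, Cyb5r2, Iars, Jdp2, Rab39b, Slamf9 and Vldlr. By list, 7 of 17 ISR regulators with a promoter held it and 5 of 12 cytosolic tRNA synthetase genes, but 0 of 15 serine and one-carbon enzymes and 0 of 14 mitochondrial tRNA synthetases. A match is a description of letters in a window of 300 bases, and its absence says nothing on binding elsewhere.

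Among transcription factors and feedback genes of the ISR, 6 of 13 tested genes were called higher and 0 lower. All 13 were fitted higher, with a median log2 fold change of 1.19 against 0.01 over all tested genes. Of the 18 list members the others missed the filter on low counts, and Chac1, Trib3 and Vldlr were near the floor in controls. Such genes can pass the filter through the deficient group alone, which favours higher values in this list. Atf4 was at 227, 207 and 195 CPM in controls and at 539, 417 and 486 CPM in deficient mice. The groups were far apart, with a log2 fold change of 1.19 (SE 0.13, edgeR adjusted p = 0.0039). Chac1, which breaks down glutathione and is a direct Atf4 target, went from 1.26, 0.844 and 1.09 CPM to 31.3, 27.4 and 28.4 CPM. That was a log2 fold change of 4.69 (SE 0.22, edgeR adjusted p = 1.71e-05), although control mice 2 and 3 gave only 7 and 9 counts. Trib3, a pseudokinase that restrains Atf4 activity, was at 1.73, 1.21 and 0.845 CPM in controls and at 20.7, 17.5 and 21.6 CPM in deficient mice. Its log2 fold change was 3.86 (SE 0.27, edgeR adjusted p = 0.000231). Sesn2, which encodes a leucine-sensing inhibitor of mTORC1, went from 10.98, 12.9 and 9.66 CPM to 58.7, 39.1 and 44.3 CPM, a log2 fold change of 2.09 (SE 0.19).

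The lipoprotein receptor gene Vldlr, at 0.702 to 1.57 CPM in controls and 7.21 to 8.77 CPM in deficient mice, and Jdp2, a bZIP repressor at 1.33 to 2.49 and 5.77 to 10.5 CPM, completed the called genes of this list. Jdp2 was lost with control mouse 1 thinned. Other arms of the response were not called by edgeR. Ddit3, which encodes the death-associated factor Chop, was at 7.20, 6.87 and 7.12 CPM in controls and 10.8, 9.89 and 10.1 CPM in deficient mice, without overlap and with a log2 fold change of 0.54 (SE 0.18, edgeR adjusted p = 0.371). Ppp1r15a, whose product helps to dephosphorylate eIF2α, was at 9.16 to 11.5 CPM against 11.96 to 15.2 CPM. Atf3 was at 7.39, 10.7 and 5.67 CPM against 16.3, 18.3 and 15.2 CPM, with an edgeR adjusted p of 0.156. Eif4ebp1, a repressor of cap-dependent translation, was at 25.5, 12.4 and 13.5 CPM against 60.6, 40.0 and 42.8 CPM. Its call by edgeR depended on the deep library. It was not called with 6 libraries (edgeR adjusted p = 0.176) and was called without control mouse 1 (0.000294). DESeq2 called both Atf3 and Eif4ebp1 higher with 6 libraries. Of the 13 genes for eIF2 kinases and eIF2 and eIF2B subunits edgeR called 0, DESeq2 called 0, and 3 had an unadjusted p under 0.05. The kinase genes Eif2ak3 (Perk) and Eif2ak4 (Gcn2) had log2 fold changes of -0.21 (SE 0.13) and 0.06 (SE 0.11).

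**Figure D2:**
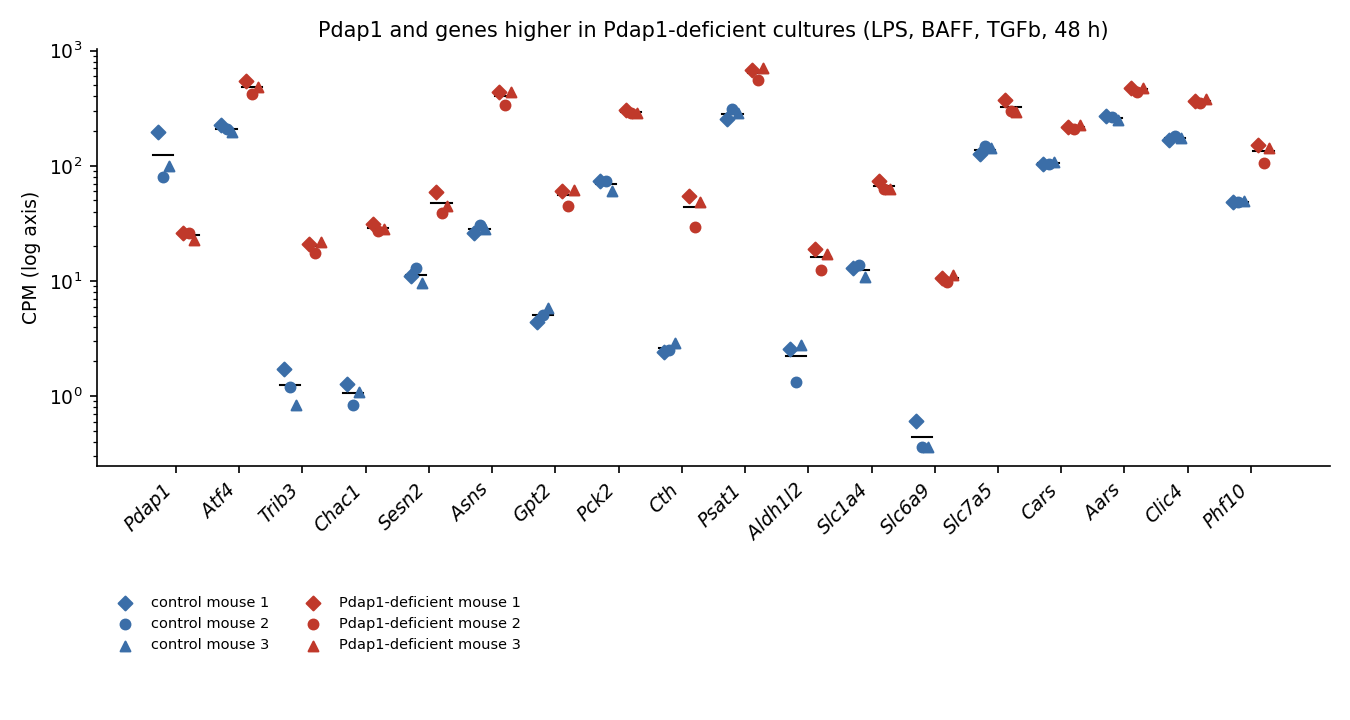
CPM on a log axis of Pdap1 and 17 genes on which the results turn, with each mouse as a point (blue for control, red for Pdap1-deficient, shape by mouse number) and group means as bars. In each of the 17 genes the 3 deficient mice lie above the 3 control mice, and for Pdap1 control mouse 1 lies far above the other control mice.

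Enzymes that make amino acids formed the second group. Of 15 genes for asparagine, alanine, proline and branched-chain metabolism 5 were called higher and 0 lower, while the list's median was 0.04. Asns, asparagine synthetase, was at 26.2, 30.7 and 28.1 CPM in controls and at 436, 336 and 440 CPM in deficient mice. With a fold change of 14.3 (log2 3.84, SE 0.15, edgeR adjusted p = 8.64e-06) it had the smallest p of all genes. Gpt2, the mitochondrial alanine transaminase, went from 4.43, 5.06 and 5.79 CPM to 60.9, 44.5 and 61.8 CPM, which was an 11.1-fold difference. The deficient mice stayed in the same order for both genes, with mouse 2 lowest.

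Bcat1, the cytosolic transaminase of branched-chain amino acids, was at 53.1 to 59.1 CPM in controls and 141 to 179 CPM in deficient mice. The proline pathway genes Pycr1 and Aldh18a1 rose with log2 fold changes of 1.91 (SE 0.24) and 0.96 (SE 0.12). Their relatives did not follow: Pycrl, Bcat2 and Glul had log2 fold changes between -0.13 and 0.02, and Got2, which makes aspartate in mitochondria, was at 264, 192 and 200 CPM against 150, 144 and 147 CPM (edgeR adjusted p = 0.183, called lower by DESeq2).

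In the serine, glycine and folate list 6 of 17 genes were called higher and 0 lower, with a median log2 fold change of 0.42. Psat1 and Psph, which carry out the later steps of serine synthesis, rose from 253, 309 and 285 CPM to 677, 551 and 703 CPM and from 30.6, 31.8 and 24.5 CPM to 67.6, 59.1 and 72.5 CPM. Their log2 fold changes were 1.19 (SE 0.14) and 1.20 (SE 0.14). Phgdh, the enzyme that begins this pathway, was at 183, 185 and 163 CPM against 252, 230 and 266 CPM and was called only without control mouse 1 (edgeR adjusted p = 0.043, and 0.156 with 6 libraries). The mitochondrial folate enzymes moved apart from their cytosolic counterparts. Shmt2, Mthfd2 and Aldh1l2 rose, with log2 fold changes of 0.95 (SE 0.12), 1.09 (SE 0.15) and 2.83 (SE 0.30), whereas the cytosolic Shmt1 and Mthfd1 had values of -0.50 (SE 0.13) and -0.41 (SE 0.13) that were not called. Psph overlaps the highly expressed Cct6a and Aldh1l2 overlaps D10Wsu102e, both on the opposite strand, and the counting was not stated to use strand.

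Cth, cystathionine gamma-lyase, makes cysteine and was the only called gene of 11 in the transsulfuration and glutathione list. It was at 2.43, 2.53 and 2.90 CPM in controls and at 54.7, 29.2 and 48.2 CPM in deficient mice, a 17.0-fold difference (log2 4.09, SE 0.26, edgeR adjusted p = 0.00011). Pck2, the mitochondrial form of phosphoenolpyruvate carboxykinase, went from 73.2, 74.0 and 60.7 CPM to 304, 286 and 285 CPM. The 3 deficient mice were close together, at 4.12 to 4.38 times the control mean. With Vegfa it was called in a list of 20 genes of gluconeogenesis, glycolysis and the hypoxia response whose median was -0.16.

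Transporters of amino acids rose as well, with 6 of 16 genes called higher and 0 lower and a median log2 fold change of 0.42. Slc1a4, a carrier of alanine, serine and cysteine, was at 12.9, 13.7 and 10.7 CPM in controls and at 73.7, 63.2 and 63.0 CPM in deficient mice, with a log2 fold change of 2.41 (SE 0.14). Slc6a9, the glycine transporter, went from 0.608, 0.362 and 0.362 CPM to 10.7, 9.89 and 11.2 CPM, on 3 counts in each of control mice 2 and 3. These were followed by the arginine and lysine carriers Slc7a3 (log2 1.504, SE 0.15) and Slc7a1 (0.80, SE 0.12), and by both subunits of the large neutral amino acid exchanger, Slc7a5 (1.23, SE 0.13) and Slc3a2 (0.85, SE 0.10). The glutamine carriers Slc1a5, Slc38a1 and Slc38a2 had log2 fold changes of 0.16, 0.11 and 0.34 and were not called.

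Slc7a11, the cystine importer and a known target of both Atf4 and Nrf2, behaved differently from these. It was at 6.17, 2.41 and 15.8 CPM in controls and at 4.15, 312 and 64.2 CPM in deficient mice 1, 2 and 3, so that mouse 1 lay within the control range (log2 3.99, SE 1.74, edgeR adjusted p = 0.52). Its order across the deficient mice was that of Lyz2 and of the summed myeloid markers, and the part of these in the difference was not tested. The heme oxygenase gene Hmox1 gave the same order, at 3.99, 144 and 27.1 CPM. So did the chemokine gene Ccl3 at 0.319, 90.8 and 15.4 CPM. The cytokine gene Il6 had this order too, at 7.497, 29.5 and 11.99 CPM. Unlike Slc7a11, Il6 was above its controls (3.60, 3.01 and 3.74 CPM) in every deficient mouse. DESeq2 called Il6 higher with 6 libraries and edgeR did not. Since such cultures are mixtures, more cells of a type and more RNA per cell cannot be told apart. The median fold of the 64 higher genes over the control mean was 2.59 in Pdap1-deficient mouse 1, whose myeloid markers summed to 39.2 CPM, and 2.57 and 2.86 in mice 2 and 3, although these genes were chosen on the same 3 mice. With mice 2 and 3 both left out, edgeR called 6 genes higher. In that fit the lone deficient mouse is assumed to vary as the controls do.

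Cytosolic aminoacyl-tRNA synthetases, which load amino acids onto tRNA, changed unevenly. edgeR called 6 of 20 higher and 0 lower, and the median of the list was 0.17. Cars (cysteine), at 103, 104 and 108 CPM against 217, 210 and 226 CPM, had the largest log2 fold change of the called genes in the list, 1.05 (SE 0.10, edgeR adjusted p = 0.00217). Lars (leucine), Nars (asparagine), Aars (alanine), Yars (tyrosine) and Iars (isoleucine) rose with log2 fold changes of 0.87, 0.85, 0.82, 0.77 and 0.64. Gars (glycine) and Sars (serine) joined them without control mouse 1, with log2 fold changes of 0.79 (SE 0.12) and 0.67 (SE 0.10), and were also called by DESeq2 with 6 libraries. Gars was at 268, 393 and 363 CPM in controls and at 674, 550 and 742 CPM in deficient mice, without overlap. The genes for phenylalanine (Farsa), histidine (Hars), lysine (Kars), glutamine (Qars) and arginine (Rars) had log2 fold changes from -0.37 to -0.21 and none was called by either tool. Without overlap of the groups 9 of the 20 were higher and 4 lower, against 18.9% of all tested genes, with 8.88% lower. At an unadjusted p under 0.05, 9 were higher and 3 lower, against 10.6% of all tested genes, with 5.28% lower. edgeR and DESeq2 each called 0 of the 17 mitochondrial synthetases, and 3 had an unadjusted p under 0.05. Among these only Lars2 was far from control, at 924, 980 and 4743 CPM against 108472, 18522 and 10262 CPM, with an SE of 1.44 on the log2 scale.

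**Figure D3:**
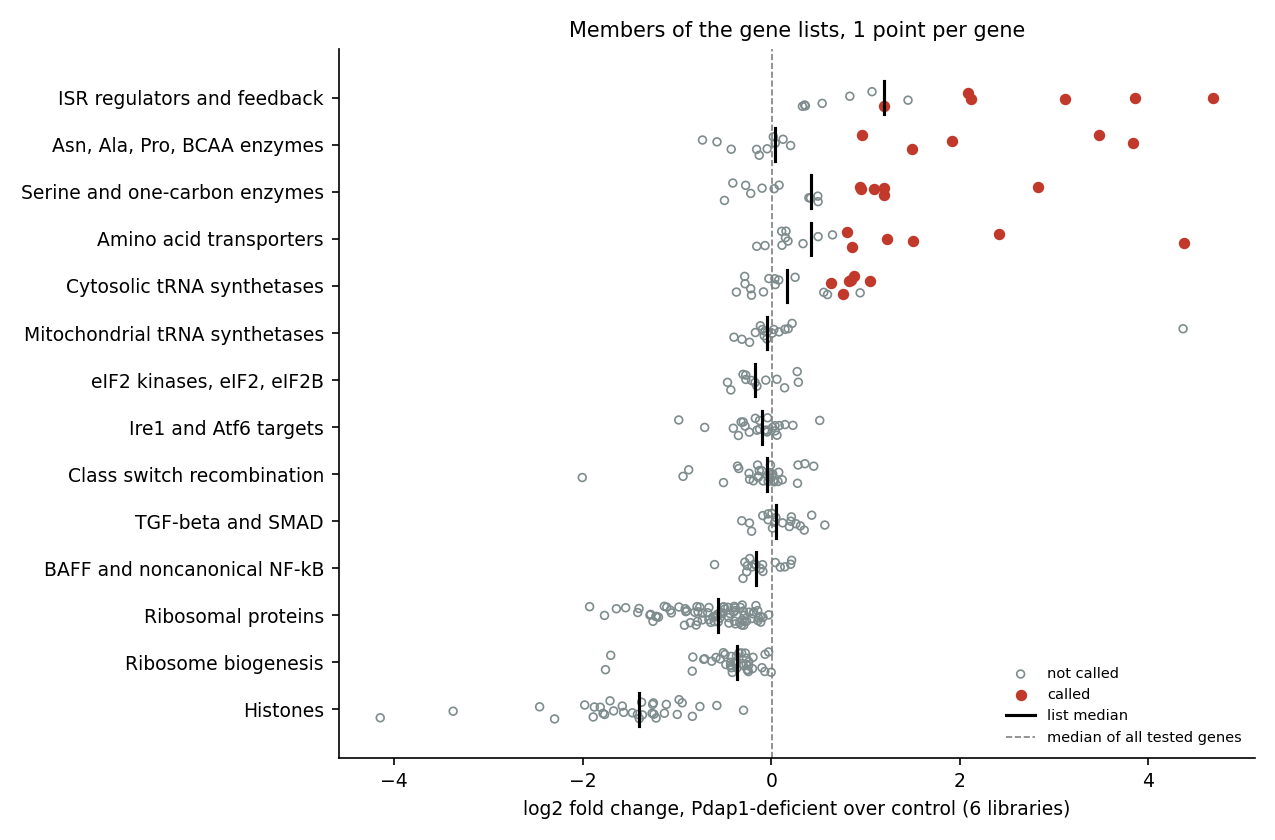
Log2 fold change of each tested member of 14 gene lists, with called genes in red, other genes as open circles, the median of each list as a black bar and the median of all tested genes as a dashed line. Called genes lie in the upper 5 lists, from ISR regulators to cytosolic tRNA synthetases, and all ribosomal protein, ribosome biogenesis and histone genes lie below 0 without a call.

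Of the 64 higher genes 34 were on one of the 28 functional lists and 30 on none. Vegfa, the vascular growth factor, had the largest fold change of all called genes, from 35, 0 and 6 counts in the controls (0.546, 0 and 0.724 CPM) to 28.4, 19.8 and 25.7 CPM (log2 5.68, SE 0.50, edgeR adjusted p = 0.00326). The receptor gene Il2ra, which encodes CD25, went from 3.26 to 4.83 CPM to 11.96 to 13.6 CPM. Of 18 Nrf2 target genes edgeR called only Nqo1, a quinone reductase, at 3.74 to 5.19 against 10.5 to 17.9 CPM. DESeq2 called Nqo1 and Gsr higher. The list's median log2 fold change was 0.49, with 14 genes fitted higher and 4 lower. Over the settings of the fit that median ran from -0.12 to 0.72. At an unadjusted p under 0.05, 7 were higher and 1 was lower, where 10.6% of all tested genes had such a p. Without overlap of the groups 6 were higher and 1 lower, against 18.9% of all tested genes.

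Several genes outside the amino acid response were as stable as those within it. Clic4, an intracellular chloride channel protein, was at 166, 182 and 173 CPM in controls and at 368, 347 and 380 CPM in deficient mice, and its log2 fold change was 1.04 to 1.11 whichever mouse was left out. Glipr2, which encodes a Golgi-associated protein, went from 12.7, 12.8 and 12.3 CPM to 34.6, 40.8 and 37.2 CPM. Phf10, a subunit of a chromatin remodelling complex, was at 48.0, 48.1 and 49.7 CPM against 151, 106 and 144 CPM, and it overlaps 1600012H06Rik on the opposite strand. These genes had the narrowest control ranges of the 19 stable genes named above together with Cars. The ubiquitin ligase gene Dtx4 (log2 0.82, SE 0.11), the lipid flippase gene Atp8b4 (1.57, SE 0.19), Trim35 (0.93, SE 0.11), the glucocorticoid-induced gene Tsc22d3 (1.39, SE 0.20) and the intermediate filament gene Vim (0.61, SE 0.10) rose too. Wdfy1, at 36.5, 32.8 and 33.6 CPM against 60.6, 97.4 and 104 CPM, was called with 6 libraries but not without control mouse 1 (edgeR adjusted p = 0.0773). The entries Gm43890, Gm12981 and Gm19238 lie on the same strand within the called genes Mthfd2, Sesn2 and Efcab11, so their counts may come from those genes.

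The remaining called genes on no list, of which those named here were chosen after their values were seen, had log2 fold changes between 0.76 and 2.87. Low levels marked several of the largest. Slamf9, a receptor of the SLAM family, was at 2.35, 2.77 and 1.21 CPM against 10.8, 6.59 and 11.8 CPM. Tmem26 was at 1.31, 1.57 and 1.45 CPM against 6.86, 7.41 and 4.89 CPM. Rab39b, a small GTPase gene, gave 2.604 to 2.897 CPM and 7.82 to 8.84 CPM. At higher levels, Plcl2, which encodes a phospholipase C-like protein that tempers B cell receptor signals, was at 101, 118 and 118 CPM in controls and at 197, 176 and 194 CPM in deficient mice, so the groups were well apart despite a log2 fold change of 0.76 (SE 0.11). Pde4dip, which anchors a phosphodiesterase at the centrosome and Golgi, gave the same log2 value, and Sla, an adaptor that damps antigen receptor signalling, rose by 1.05 (SE 0.17). Among these, Rhbdd1, Lrp4 and Gm12981 were called in 3, 1 and 0 of the 10 thinned draws.

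Leaving out control mouse 1 brought in 53 genes, 43 of them higher. Nfe2l1, a transcription factor that raises proteasome genes, was at 123 CPM in control mouse 1, 91.7 and 79.2 CPM in the other controls and 154 to 171 CPM in deficient mice, and its log2 fold change went from 0.73 (SE 0.16) to 0.93 (SE 0.11) without that library. Kcnab2, a potassium channel subunit gene, was at 69.2, 55.6 and 54.6 CPM against 87.9 to 95.4 CPM. For Bmf, a BH3-only cell death gene, control mouse 1 at 31.9 CPM lay close to the deficient mice at 33.7 to 36.5 CPM, while the other controls were at 22.4 and 22.9 CPM. Herpud1, which acts in the degradation of misfolded proteins of the endoplasmic reticulum, was at 115 to 125 CPM in all 3 controls and at 160 to 181 CPM in deficient mice, so its log2 fold change was 0.51 with 6 libraries and 0.52 without control mouse 1. Cpt1a, the gate of fatty acid entry into mitochondria, behaved likewise with 0.69 and 0.74.

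Fewer genes were lower. Ifi208, a member of the interferon-inducible HIN-200 family (chromosome 1, 173673675-173698395, plus strand), was at 14.7, 14.8 and 19.1 CPM in controls and at 3.83, 4.53 and 3.49 CPM in deficient mice. Its log2 fold change of -2.04 (SE 0.22, edgeR adjusted p = 0.00338) lay between -2.16 and -1.92 whichever mouse was left out. Of 27 tested interferon-stimulated and HIN-200 genes it was the only one called, and its neighbours in the family Ifi203, Ifi206, Ifi209, Ifi211 and Ifi213 had log2 fold changes from -0.30 to 0.65. Next by p were genes that missed the threshold in edgeR's test. The chemokine gene Ccl22, expressed by activated B cells, was at 311, 261 and 325 CPM in controls. In deficient mice it was at 79.0, 145 and 78.4 CPM (log2 -1.57, SE 0.25, edgeR adjusted p = 0.0615). DESeq2 called it lower with 6 libraries. Tmed6, a cargo receptor gene, gave 3.98 to 6.38 CPM against 0.698 to 1.60 CPM (0.0615).

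Batf, a transcription factor that class switching requires, was at 182, 130 and 135 CPM against 93.0, 70.2 and 80.5 CPM, a log2 fold change of -0.88 (SE 0.16, edgeR adjusted p = 0.0692). It was called lower without control mouse 1 (log2 -0.71, SE 0.12, edgeR adjusted p = 0.0119), as were Ighg3, Smn1, Gstt2, Gpx1, Sdf2l1, Adss, Pdap1, Gm9800 and AC121967.1. With Ifi208 these are the 11 lower genes of that fit. Ighg3, the constant gene of IgG3, went from 43.5, 45.7 and 59.6 CPM to 25.8, 26.6 and 31.1 CPM and did not overlap (log2 -0.83 with 6 libraries, edgeR adjusted p = 0.0747; -0.92 without control mouse 1, 0.0054).

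The constant gene that these stimuli target was not among them. Ighg2b was at 530, 606 and 634 CPM in controls and at 580, 556 and 555 CPM in deficient mice, with overlapping groups and a log2 fold change of -0.07 (SE 0.11). Ighm was at 2379 to 2832 CPM and at 2726 to 2904 CPM (log2 0.09, SE 0.12). Igha, the constant gene of IgA, ranged from 14.3 to 19.8 CPM in controls but over 3.19, 34.4 and 10.1 CPM in deficient mice, again highest in mouse 2. Of 7 tested constant genes edgeR called 0 and DESeq2 called Ighg3. Of 31 class switch recombination genes edgeR called 0 and DESeq2 called 2 lower, Batf among them, while 4 had an unadjusted p under 0.05. Log2 fold changes in that list ran from -2.005 to 0.45 around a median of -0.04. The lowest was that of Apex1, at 75.7, 6.39 and 9.29 CPM in controls and 10.4, 6.80 and 6.28 CPM in deficient mice. It thus rested on control mouse 1. Without overlap of the groups 2 genes of the 31 were higher and 5 lower. Of all tested genes 18.9% did not overlap, with 8.88% lower. RNA counts of a constant gene include germline and switched transcripts, which a gene count does not separate, and the constant genes of the IgG subclasses are similar enough in sequence to share reads.

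**Figure D4:**
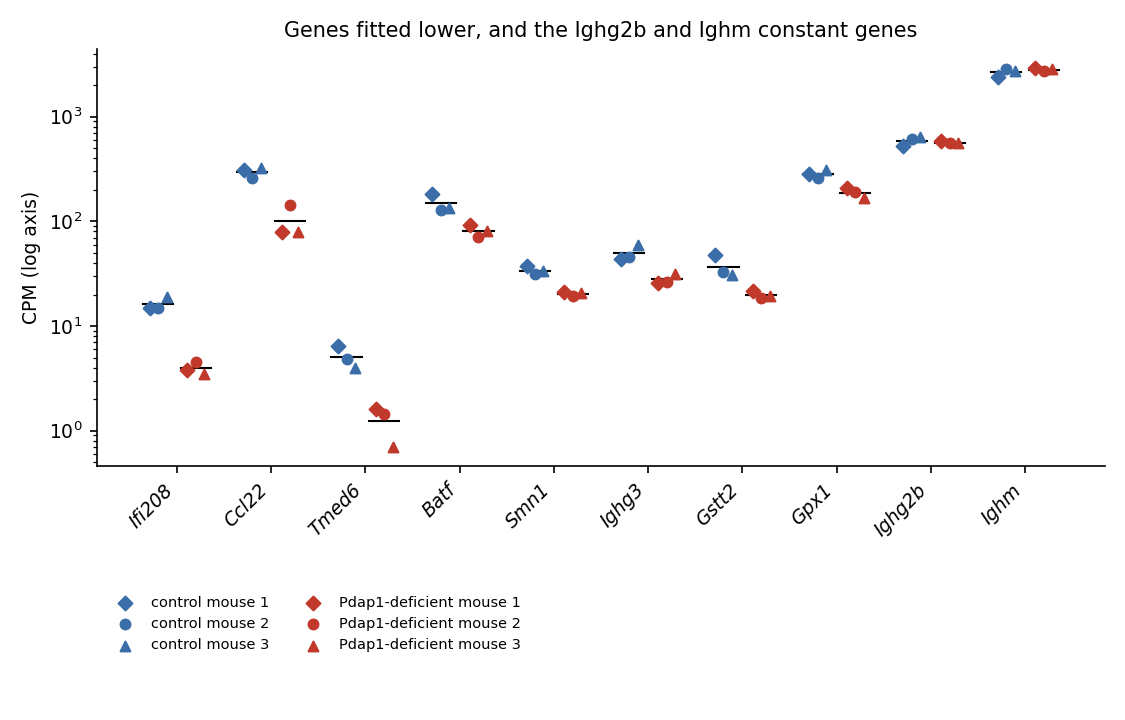
CPM on a log axis of 8 genes fitted lower, namely 7 of the 10 with the smallest p and Gpx1, which was called without control mouse 1, and of Ighg2b and Ighm, drawn as in the plot of higher genes. The groups are apart for Ifi208, Ccl22, Tmed6, Batf, Smn1, Ighg3, Gstt2 and Gpx1, and overlap for Ighg2b and Ighm.

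Pathways that read the stimuli themselves held no called gene. Of 19 TGFβ receptor and SMAD pathway genes edgeR and DESeq2 called 0, with 2 at an unadjusted p under 0.05 and a median log2 fold change of 0.05. Tgfbr1 was at 90.5, 131 and 114 CPM in controls and at 134, 143 and 150 CPM in deficient mice (0.35, SE 0.14), and the SMAD-induced gene Skil was at 376, 555 and 529 CPM against 549, 580 and 620 CPM. Of 17 genes of BAFF receptors and noncanonical NF-κB both tools called 0, with 1 at an unadjusted p under 0.05 and a median of -0.16, and the BAFF receptor gene Tnfrsf13c was at 398 to 450 CPM against 339 to 369 CPM. Of 25 genes of LPS recognition and Toll-like receptor signalling both called 0, with 1 at an unadjusted p under 0.05. Tlr4 was at 13.8, 20.6 and 19.2 CPM against 23.1, 34.4 and 35.0 CPM (log2 0.80, SE 0.22, edgeR adjusted p = 0.26). The 24 B cell identity genes had a median of -0.01 and the 13 tested plasma cell genes one of 0.10, with no call by either tool and 3 and 2 genes at an unadjusted p under 0.05. Prdm1, the plasma cell regulator, was at 8.92, 6.87 and 7.85 CPM against 10.7, 10.5 and 7.91 CPM.

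The targets of Ire1 and Atf6, the other branches of the unfolded protein response, had a median log2 fold change of -0.10. edgeR called 0 of 24, and DESeq2 called Herpud1 higher and Sdf2l1 lower. At an unadjusted p under 0.05 there were 7, of which 6 were lower, against 5.28% of all tested genes that were lower. Without overlap of the groups 6 were lower, against 8.88% of all tested genes, and 2 were higher. Hspa5, the chaperone BiP, was at 1021, 1211 and 1086 CPM in controls and at 1008, 924 and 1110 CPM in deficient mice. No gene of p53 targets (16 tested), cell death genes (19), DNA replication (31) or mitosis (27) was called by edgeR or DESeq2, and their medians were -0.11, -0.12, -0.12 and -0.04. At an unadjusted p under 0.05 there were 2, 4, 2 and 1 of these genes, where 10.6% of all tested genes had such a p.

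Ribosomal protein genes showed how far 1 library can set a list. All 79 were fitted lower with 6 libraries, with a median log2 fold change of -0.57, yet edgeR called 0, DESeq2 called Rpl27 and 11 had an unadjusted p under 0.05. The sum of the 79 genes was 41659, 22325 and 23820 CPM in control mice 1 to 3 and 21620, 19373 and 20805 CPM in deficient mice. Without control mouse 1, 69 were fitted lower and the median was -0.16. With control mouse 1 thinned to the depth of the others it was -0.55. Many ribosomal protein genes have processed pseudogenes with which reads can be shared. Histone genes moved the same way, with sums of 13948, 4550 and 5721 CPM in controls and 5010, 3784 and 2457 CPM in deficient mice, and their median went from -1.40 to -0.51 without control mouse 1. edgeR called 0 of 33 histone genes, DESeq2 called Hist1h1e, and 4 had an unadjusted p under 0.05.

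Genes of ribosome biogenesis depended less on that library. All 40 were fitted lower with 6 libraries (median -0.37), with control mouse 1 thinned the median was -0.37, and without it all 40 were again fitted lower (median -0.30). For 30 of the 40 the groups did not overlap, each with lower values in deficient mice, against 8.88% of all tested genes. The mean log2 level of the list, set to control mice 2 and 3, was 0.29 in control mouse 1 and -0.25, -0.47 and -0.19 in the deficient mice. No single gene was called by edgeR with or without control mouse 1, DESeq2 called Nhp2 and Rrp9, and 21 of the 40 had an unadjusted p under 0.05, all of them lower, against 5.28% of all tested genes. Npm1, which encodes nucleophosmin of the nucleolus, was at 2291, 1977 and 1901 CPM in controls and at 1562, 1274 and 1738 CPM in deficient mice (log2 -0.43, SE 0.15, edgeR adjusted p = 0.374).

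**Figure D5:**
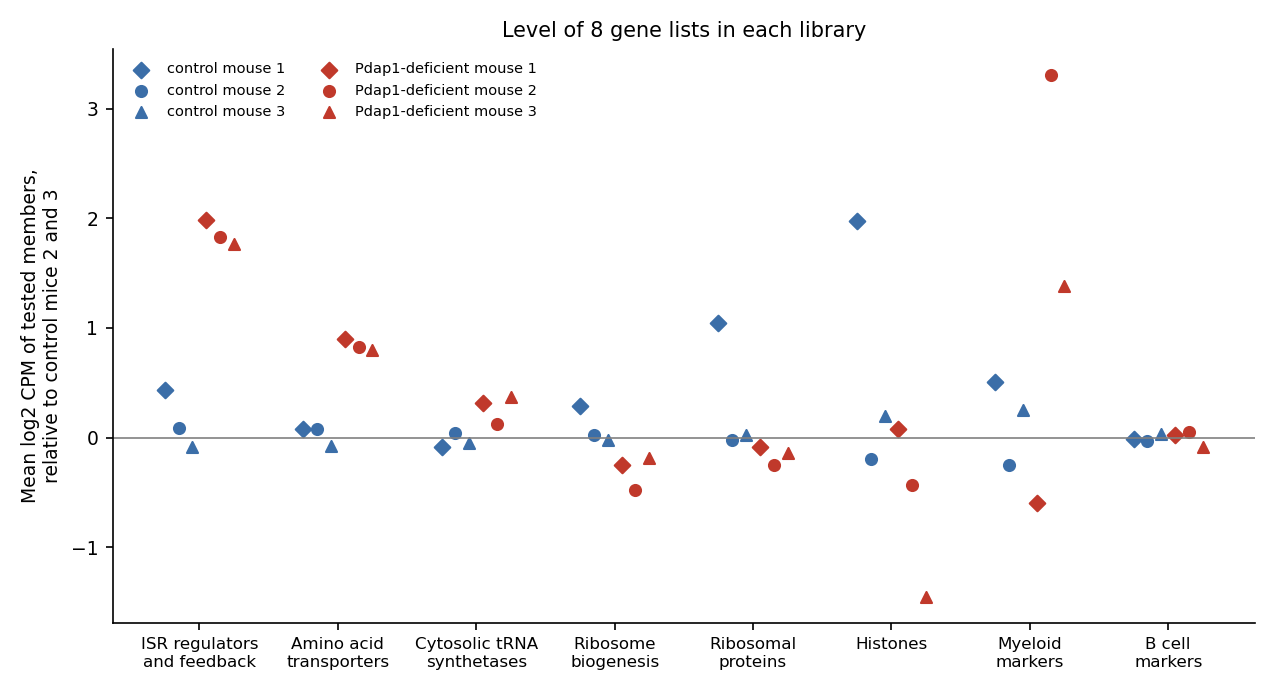
Mean log2 CPM of the tested members of 8 gene lists in each library, set relative to the mean of control mice 2 and 3, with colour for genotype and shape for mouse number. ISR regulators and transporters are higher in all 3 deficient mice, ribosomal protein and histone genes set control mouse 1 apart, and myeloid markers are highest in Pdap1-deficient mice 2 and 3.

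B cells of the same genotypes cultured with LPS and 5 ng/ml IL-4, which drives switching to IgG1, gave another setting, and the difference of the genotype effects was tested as an interaction over all 12 libraries. By the series description, cultures of equal number within a genotype came from the same mouse, which the main fit did not use. In it edgeR called 0 of 15794 genes, with 755 at an unadjusted p under 0.05 and a smallest adjusted p of 0.217. With the mouse as a block edgeR again called 0, with 983 at an unadjusted p under 0.05 and a smallest adjusted p of 0.135. DESeq2, without the block, called 6: Chac1, Clic4, Ighg1, Prdm1, Tmem26 and Vegfa. Of the 65 genes called with LPS, BAFF and TGFβ, 47 had a larger log2 fold change there than with LPS and IL-4 and 18 a smaller one, with a median difference of 0.23. These genes were picked by their difference in the LPS, BAFF and TGFβ cultures, which favours a larger value there. Group means over all 12 libraries show where control levels differ. Chac1 was at 3.76 CPM in controls with LPS and IL-4 and 1.08 CPM with LPS, BAFF and TGFβ, while deficient cells were at 34.6 and 29.2 CPM. Clic4 went from 601 to 733 CPM with LPS and IL-4 and from 176 to 368 CPM with LPS, BAFF and TGFβ (interaction 0.78, SE 0.14, edgeR adjusted p = 0.274). For Vegfa the means were 7.12 and 54.0 CPM with LPS and IL-4 and 0.43 and 24.8 CPM with LPS, BAFF and TGFβ.

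Prdm1 had an interaction of the opposite sign, from 17.4 to 62.3 CPM with LPS and IL-4 and from 7.98 to 9.77 CPM with LPS, BAFF and TGFβ (interaction -1.57, edgeR adjusted p = 0.217). Atf4, Aldh1l2 and Cars had interaction values of 0.14, 0.01 and 0.12 and adjusted p values from 0.989 upward. An interaction that misses the threshold does not show that the effects are equal, and LPS-IL-4 libraries were closer in depth, with totals of 9386667 to 15869143.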

How the data were processed

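Total RNA of B cells from 12 cultures was sequenced after ribosomal RNA depletion, and the 6 LPS, BAFF and TGFβ libraries are analysed here. The sources disagree on the kit, since the labels name a poly(A) kit, and the study's methods were followed. The authors deposited raw read counts per gene for 55536 features. The submitters' processing notes name Trim Galore 0.6.1, STAR 2.6, HTSeq 0.9.1 and DESeq2 with the mouse genome GRCm38, and the strand setting of counting is not given in the sources used here. A second table of normalized counts was not used.

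Genes passed edgeR's filterByExpr, counts were scaled by TMM, and the main test was the robust quasi-likelihood F test of edgeR 4.0.16 in R 4.3.3, with Benjamini-Hochberg adjustment over all tested genes. Equal mouse numbers were not taken as pairs, because deviations of same-numbered mice from their group means correlated by 0.159, -0.167 and 0.0639. CPM values use TMM-scaled library sizes. Control mouse 1 was thinned binomially to about 8063586 counts in 10 draws, of which the first is shown. Standard errors come from the same model. Gene coordinates follow GENCODE M21. The count test was tested on simulated data. Interaction of genotype and stimulation was fitted over all 12 libraries, without and with the mouse as a block. Alternatives were DESeq2 1.42.0, other filters, scaling and depths, each mouse left out, a replicate block, a fit of all 12 libraries and removal of immunoglobulin genes.

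Members and lists were chosen with earlier results of these data known. The rule for named genes took Pdap1, the 30 called genes of each direction with the smallest p, 10 lower genes given as values, the 10 of each direction with the smallest p among genes called only with control mouse 1 thinned or left out, the genes lost there, and list members. Other genes on no list that the text names, such as Dtx4, Plcl2, Tmem26, Tsc22d3 and Vim, were chosen after their values were seen. A few results are not reported here. Samples of a group are separate mice, and the test measures the spread between them.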

Additional observations from a re-analysis of the deposited data

How the results depend on the processing

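The 64 higher genes and 1 lower gene were recomputed under 19 alternatives. The count was 65 with DESeq2's size factors in edgeR and 65 with immunoglobulin genes removed, 58 with at least 10 counts in every library, and 63 both with control mouse 1 thinned and with all libraries thinned to the smallest, where 3 genes were lower. It rose to 172 (131 higher, 41 lower) with DESeq2's Wald test, to 257 (146 and 111) with no filter on low counts and to 133 (114 and 19) with all 12 libraries in 1 fit. With the replicate block it was 48, with 44 higher and 4 lower, and the block called Pdap1 at -2.22 (adjusted p = 0.0347), although equal numbers were not taken as pairs. With 1 mouse left out, totals ran from 19 (without control mouse 3) to 116 (without control mouse 1), and were 24, 28, 33 and 47 without Pdap1-deficient mouse 3, 1 and 2 and control mouse 2, with 18 to 105 higher and 1 to 11 lower. Alternatives added after seeing the data gave 163 (119 and 44) with DESeq2 and control mouse 1 thinned, 154 (112 and 42) with DESeq2 without it, 42 (41 and 1) with a sex term, and 7 (6 and 1) without Pdap1-deficient mice 2 and 3. For Pdap1 the log2 value was -2.34 with DESeq2 and also with 12 libraries, -2.31 and -1.86 with DESeq2 and control mouse 1 thinned or left out, and -2.57 to -1.85 with 1 mouse left out. DESeq2 called 6 genes for the interaction where edgeR called 0. Among 73 named genes, 1044 values kept their side of the threshold, 140 passed it newly and 189 no longer passed it. No named gene changed sign. Of the list medians 21 values moved by more than the spread, and the median of 14 of 31 lists changed sign under some alternative. Among them were amino acid enzymes (lowest -0.02), TGFβ (-0.01) and plasma cell genes (-0.06), B cell identity (highest 0.03) and mitosis genes (0.03). Wider ranges that crossed 0 were those of Nrf2 targets (-0.12 to 0.72), interferon genes (-0.54 to 0.36) and cytokine genes (-0.32 to 0.40). Mitochondrially encoded genes (-0.41 to 0.28) and myeloid markers (-0.53 to 1.92) crossed 0 as well. No direction is therefore read from medians near 0 or from those of these lists. Over the alternatives not added later, adjusted p ran from 1.96e-14 to 0.459 for Pdap1, 6.05e-05 to 0.459 for Eif4ebp1, 0.043 to 0.507 for Phgdh, 2.02e-08 to 0.148 for Wdfy1, 1.36e-05 to 0.361 for Batf and 0.00031 to 0.371 for Ighg3. The cause of the lost calls was not tested.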
